A study of Mus musculus with 24 samples.

Results

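The miR-465 family comprises 4 mouse microRNAs (miRNAs), miR-465a, miR-465b, miR-465c and miR-465d, which are encoded by a row of near-identical hairpins on the X chromosome. Its members were taken by name, as every row of the count table named miR-465a to miR-465d, 5p or 3p arm, which gave 8 of the 1978 mature miRNAs in the table. All 8 had enough counts to be tested in every comparison, for which 3 or more of the libraries had to hold 10 counts or more. Small RNA was sequenced from pachytene/diplotene spermatocytes and from round spermatids, the haploid cells that follow meiosis, of Ago413+/+, Ago413+/- and Ago413-/- male mice, with 4 libraries in each of the 6 groups and 24 in all. The Ago413 allele is a single constitutive deletion that removes all of Ago1 and parts of Ago3 and Ago4, and it leaves Ago2 in place. It was made in embryonic stem cells, passed through a Sox2-cre deleter and backcrossed to C57BL/6J, so that the genes are missing from every cell of the body, not from germ cells alone. The mice were 10 to 15 weeks old, and each library held cells pooled from 2 to 5 mice. The cells were separated by gravity in an albumin gradient with a stated purity above 70%. The study's methods give a higher purity for round spermatids than for spermatocytes. The remaining share of each fraction could be other testis cells. A count table of miRNAs cannot check the deletion itself, because the Argonaute genes are not in it.

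A miRNA hairpin is cut by Dicer into a short duplex whose strands are named 5p and 3p after the side of the hairpin they come from. Either strand can be loaded into an Argonaute protein, and bases 2 to 8 of the loaded strand, the seed, choose its targets. Argonaute proteins also protect the strand they hold from decay. The X chromosome is transcriptionally silenced in pachytene spermatocytes by meiotic sex chromosome inactivation, and the miR-465 hairpins belong to a group of X-linked, testis-rich miRNAs that have been described as expressed during and after meiosis in spite of it.

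The mature sequences are shown because they decide what the 8 rows can and cannot tell apart. They are those of RefSeq for GRCm38.p6, written 5′ to 3′ with the seed in capitals.
mmu-miR-465a-5p: uAUUUAGAauggcacugauguga
mmu-miR-465b-5p: uAUUUAGAauggugcugaucug
mmu-miR-465c-5p: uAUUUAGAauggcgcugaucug
mmu-miR-465d-5p: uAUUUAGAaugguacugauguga
mmu-miR-465a-3p, mmu-miR-465b-3p and mmu-miR-465c-3p: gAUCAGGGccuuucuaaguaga
mmu-miR-465d-3p: uGAUCAGGgccuuucugaguaa

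The 4 5p strands share 1 seed, AUUUAGA, and differ only behind it. Counted from 1 at the 5′ end of miR-465b-5p, miR-465c-5p carries U13C alone, miR-465d-5p carries G14A and C20G, and miR-465a-5p carries U13C, G14A and C20G. On the same count but starting from miR-465a-5p, miR-465d-5p differs by C13U alone. So miR-465b-5p and miR-465c-5p are 1 base apart, and so are miR-465a-5p and miR-465d-5p. The 3p strands of miR-465a, miR-465b and miR-465c are identical over 22 bases. The annotated miR-465d-3p starts 1 base earlier, which moves its seed to GAUCAGG, and over the 21 bases it shares with the others it carries A16G and G21A. No other mouse miRNA in the RefSeq table has any of these 3 seeds, so that a family summed by seed contains miR-465 counts only.

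The 6 hairpins lie within 16470 bases of chromosome X on the minus strand (GRCm38.p6), their starts spaced by 3247 to 3315 bases. In order of position they are Mir465d (chrX:66822656-66822713), Mir465c-1 (chrX:66825955-66826035), Mir465b-1 (chrX:66829202-66829280), Mir465c-2 (chrX:66832517-66832597), Mir465b-2 (chrX:66835764-66835842) and Mir465, the miR-465a hairpin (chrX:66839052-66839125). The 2 copies of miR-465b have the same hairpin sequence, as do the 2 copies of miR-465c. All 6 hairpins were intergenic, since none overlapped another gene of the GENCODE vM21 annotation. The shared 3p sequence is thus present in 5 hairpins, in 1 copy for miR-465a and 2 copies each for miR-465b and miR-465c.

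That copy number was visible in the counts. In each of the 24 libraries the miR-465b-3p count was 2 times the miR-465a-3p count to within 1 count, and the ratio of miR-465c-3p to miR-465a-3p was 1.98 to 1.99. In round spermatids of Ago413+/+ mice the miR-465a-3p counts were 2062, 4319, 1662 and 3191, and the miR-465b-3p counts were 4124, 8639, 3325 and 6381. A read of the shared sequence had therefore been divided among the rows that contain it, and the 3 rows are 1 measurement in fixed proportions, not 3. In what follows they are summed, which counts each read once, and where a test is given for miR-465a-3p, miR-465b-3p and miR-465c-3p it is the same test repeated.

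**Figure D1:**
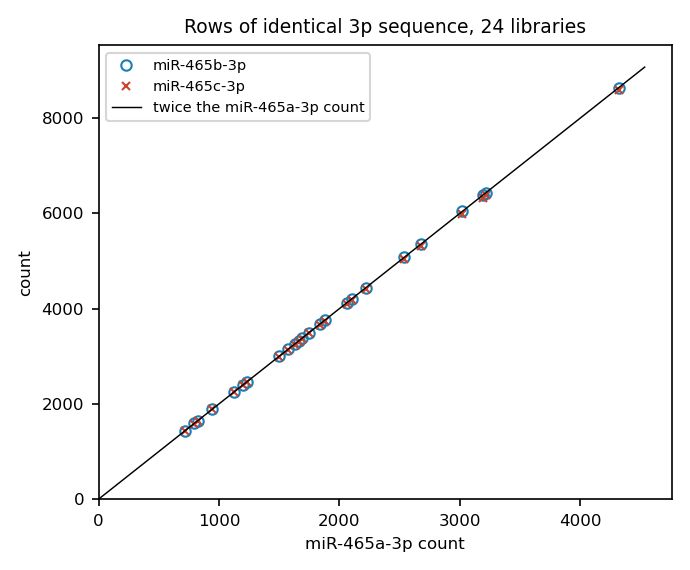
Counts of miR-465b-3p (circles) and miR-465c-3p (crosses) against the count of miR-465a-3p, 1 point per library for 24 libraries, with a line at 2 times the miR-465a-3p count. All points of miR-465b-3p lie on the line to within 1 count, and the ratio of miR-465c-3p to miR-465a-3p was 1.98 to 1.99.

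Library totals ran from 182904 to 1072637 counts, with medians between 262791 in spermatocytes of Ago413-/- mice and 641717 in round spermatids of Ago413+/+ mice. Levels are given as CPM, counts rescaled to a common library total, with the totals adjusted by the trimmed mean of M values (TMM), and a count of 3, the most that a count of 0 allows, was worth 2.74 to 20.0 CPM on that scale. The printed CPM were scaled over all 24 libraries, whereas the fold changes between genotypes come from fits scaled over the 12 libraries of a cell type, so that in round spermatids the fitted log2 fold change of miR-465a-5p, 0.73, exceeds the log2 ratio of its mean CPM, 0.58. The germ cell miRNAs miR-34b-5p, miR-34c-5p and miR-449a-5p were abundant in every library, at a summed 18720 to 185900 CPM. The lowest of these sums was that of replicate 2 of Ago413-/- spermatocytes, which was also the smallest library. Results of rows, seed families and the arm ratio that rest on it are given with and without it. Medians over the rows are given with it only. Of 10 miRNAs typical of blood, leukocytes, muscle-like cells, endothelium and gonadal somatic cells, 9 were tested in round spermatids. There 5 were called higher and 0 lower in Ago413-/- than in Ago413+/+, where 16.2% of all miRNAs tested were called. Log2 fold changes were above 0 for 7 of the 9, and below 0 for the muscle-like markers miR-143-3p (-0.14) and miR-145a-5p (-1.74). Of 8 tested in spermatocytes 0 were called in either direction, against 4.46% of all miRNAs tested. The summed level of the 10 in round spermatids was 4569 to 13960 CPM in Ago413+/+, 7146 to 12000 CPM in Ago413+/- and 16440 to 24980 CPM in Ago413-/-. The largest part in Ago413-/- was the gonadal somatic set, the arms of miR-202, at 9025 to 15960 CPM against 2498 to 8167 CPM in Ago413+/+. Of these arms miR-202-5p was called (log2 fold change 1.53) and miR-202-3p was not (0.34). The summed blood, endothelial and muscle-like sets each overlapped between Ago413-/- and Ago413+/+ round spermatids. In spermatocytes the 3 ranges overlapped (6003 to 10810, 5154 to 10940 and 5063 to 13960 CPM). Of the red blood cell markers, miR-451a held 8 to 2024 counts and miR-486a-5p 8 to 204, at 0 in none of the libraries, and both were among the 5 called higher in Ago413-/- round spermatids (log2 fold changes 3.26 and 2.11), whereas miR-144-3p was at 0 in 12 of 24 libraries and at most at 5 counts.

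In Ago413+/+ germ cells miR-465 was an abundant family, and 2 of its 5p strands supplied most of it. By mean CPM over both cell types, miR-465c-5p ranked 7 and miR-465b-5p 10 of all 1978 rows, without regard to length. miR-465a-5p ranked 56, miR-465d-3p 265 and miR-465d-5p 394. The shared 3p sequence ranked 15 when its 3 rows were summed, at a mean of 20429 CPM, and 30, 31 and 48 as single rows. The family took 7.93% ± 0.94 (SD, n = 4) of all counts in spermatocytes and 8.28% ± 0.51 (SD, n = 4) in round spermatids. In round spermatids miR-465c-5p stood at 30944, 35028, 33067 and 28575 CPM and miR-465b-5p at 18770.2, 25317, 38729 and 26709 CPM in replicates 1 to 4. The 2 strands overlapped in level, in spermatocytes too, so that their order is not resolved. Their ratio varied from library to library, from 0.607 to 1.17 in these 4, although the hairpins are equal in number. The 2 strands are 1 base apart. Whether reads of one were assigned to the row of the other was not tested, here or for the shares given below.

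miR-465a-5p, which differs from the abundant strands at the positions given above, made up 5.39% ± 0.50 (SD, n = 4) of the family's 5p counts in Ago413+/+ spermatocytes and 5.10% ± 0.80 (SD, n = 4) in round spermatids. The summed 3p strands stood at 18364, 21951, 17588 and 17813 CPM in spermatocytes and 20921, 19681, 28055 and 19063 CPM in round spermatids, below the summed 5p strands in every library of the series. The log2 ratio of 5p to 3p counts was 1.53 ± 0.15 (SD, n = 4) in spermatocytes and 1.51 ± 0.17 (SD, n = 4) in round spermatids, overlapping.

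miR-465d was close to the limit of detection. Its 5p row held 4 to 13 counts in Ago413+/+ spermatocytes and 6 to 17 in round spermatids, and its 3p row held 12 to 54 and 23 to 79 counts. In CPM the 3p row exceeded the 5p row without overlap in both cell types, at 25.7 to 73.9 against 6.64 to 15.2 CPM in spermatocytes. Over the 24 libraries the miR-465d-5p count amounted to 0.266% to 1.26% of the miR-465a-5p count, from which it differs by 1 base, with means of 0.567% in Ago413+/+ and 0.582% in Ago413-/- round spermatids. The sources used here do not give the number of mismatches allowed in matching reads to miRNAs, and the part that misread miR-465a-5p reads had in this row was not tested.

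**Figure D2:**
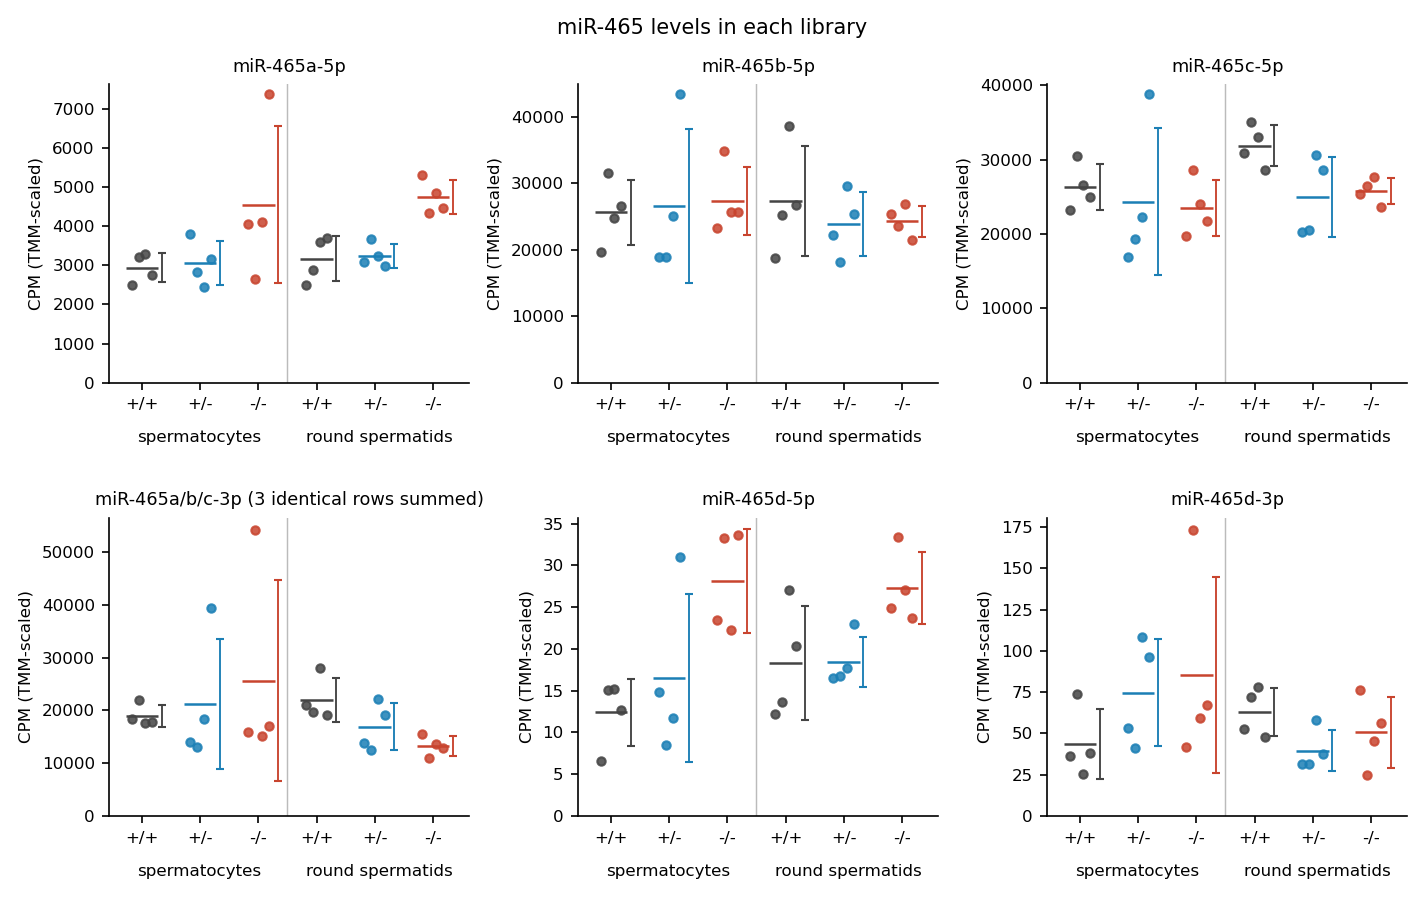
CPM (TMM-scaled) of the miR-465 strands in each of 24 libraries by cell type and genotype, with the 3 identical 3p rows summed. Points are libraries, horizontal lines are means and vertical bars are SDs of 4 libraries; all 4 Ago413-/- round spermatid libraries lie above all 4 Ago413+/+ ones for miR-465a-5p and below them for the summed 3p strands and, on this scale over 24 libraries but not on that over 12, for miR-465c-5p, and 1 Ago413-/- spermatocyte library stands at 54064 CPM for the summed 3p strands.

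The first genotype question was whether the family's levels changed when AGO1, AGO3 and AGO4 were missing. Counts were compared by the quasi-likelihood test of edgeR, the p-values were adjusted by Benjamini-Hochberg over all miRNAs tested, and a miRNA was called when its adjusted p was under 0.05 and its level differed by a log2 fold change of 1 or more in either direction. No miR-465 row was called in Ago413-/- round spermatids, against 16.2% of the 426 miRNAs tested, and 5 of the 8 had an unadjusted p under 0.05, 3 of them the 1 shared 3p sequence, where 154 of the 426 miRNAs had one. DESeq2 called 71 of the 426 and none of the 8. The median log2 fold change of the 8 rows, in which the shared 3p sequence counts 3 times, was -0.14, against 0.13 over all miRNAs. With cell fractions sequenced in bulk, fewer cells of a type and less of a miRNA per cell cannot be told apart, and since nothing states that the replicate pools were drawn from separate matings or days, the p-values measure the spread between these pools.

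Behind that absence of calls, single strands moved in opposite directions. miR-465a-5p was higher in Ago413-/- round spermatids, at 5317, 4348, 4851 and 4456 CPM against 2495, 2882, 3594 and 3712 CPM in Ago413+/+. Every Ago413-/- library exceeded every Ago413+/+ library. Its fold change was 1.66 (log2 0.73, SE 0.19), with an adjusted p of 0.0120 in edgeR's quasi-likelihood test. By the adjusted p alone it was the 1 row of 8 that passed, where 23.7% of all miRNAs did. Leaving out replicate 1 or 2 of Ago413+/+ or replicate 1 of Ago413-/- raised its adjusted p above the threshold, at log2 fold changes of 0.41, 0.51 and 0.56 with edgeR adjusted p-values of 0.173, 0.112 and 0.0910. In those fits the median of all miRNAs fell too, from 0.13 to -0.04, -0.01 and -0.01.

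The summed 3p strands were lower, at 15595, 11038, 13553 and 12881 CPM in Ago413-/- round spermatids against 20921, 19681, 28055 and 19063 CPM in Ago413+/+. The ranges did not overlap. The log2 fold change of each of the 3 identical rows was -0.56 (SE 0.21 for miR-465b-3p), with edgeR adjusted p-values of 0.0637 to 0.0697, so that the rows did not pass. With 1 library left out, miR-465b-3p ranged from -0.82 to -0.48, and its edgeR adjusted p fell under 0.05 in 4 of 8 fits. It was also under 0.05 with RLE scaling (0.0312), without a filter (0.0328), with 10 counts in every library (0.0186) and with the 2 groups alone (0.0232). It was not with the replicate block (0.0712) or with rows of identical counts counted once (0.0622). DESeq2 gave miR-465b-3p a log2 fold change of -0.67 with an adjusted p of 0.0154, and edgeR with library totals in place of TMM gave -0.79 with an adjusted p of 0.0183. The same totals brought miR-465a-5p to a log2 fold change of 0.51 with an adjusted p of 0.0614. Library totals moved the median of all miRNAs from 0.13 to -0.09 in this comparison and from -0.05 to -0.24 in spermatocytes.

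The abundant 5p strands differed little. miR-465c-5p stood at 25449.9 to 27719 CPM in 3 of the Ago413-/- libraries and 23624 CPM in the other, all below the Ago413+/+ libraries given above. Scaled over the 12 round spermatid libraries, as in the fit (a setting added after the data were seen), the groups overlapped, and the log2 fold change was -0.16 (SE 0.18) with an edgeR adjusted p of 0.561. miR-465b-5p, at 25442, 23574, 26859.8 and 21466 CPM, lay inside the Ago413+/+ range, with a log2 fold change of -0.00 (SE 0.21). Including miR-465c-5p, 5 of the 8 rows did not overlap between these genotypes, where 23.7% of all miRNAs tested did not, and 3 of the 5 are the shared 3p sequence. On the scale of the 12 libraries miR-465d-5p took the place of miR-465c-5p among the 5. miR-465d-5p had a log2 fold change of 0.76 (SE 0.34) with an adjusted p of 0.109, from 6 to 17 counts in Ago413+/+ and 11 to 21 in Ago413-/-, and miR-465d-3p one of -0.13 (SE 0.34). The summed level of the non-germ miRNAs listed above, of which miR-202 was the largest part, was higher in the same Ago413-/- libraries. The 2 muscle-like markers had log2 fold changes below 0. The germ cell miRNA miR-449a-5p had a log2 fold change of 0.98 with an edgeR adjusted p of 0.0110, while miR-34b-5p and miR-34c-5p stood at 0.16 and 0.21. The part of these miRNAs in the miR-465 differences was not tested.

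**Figure D3:**
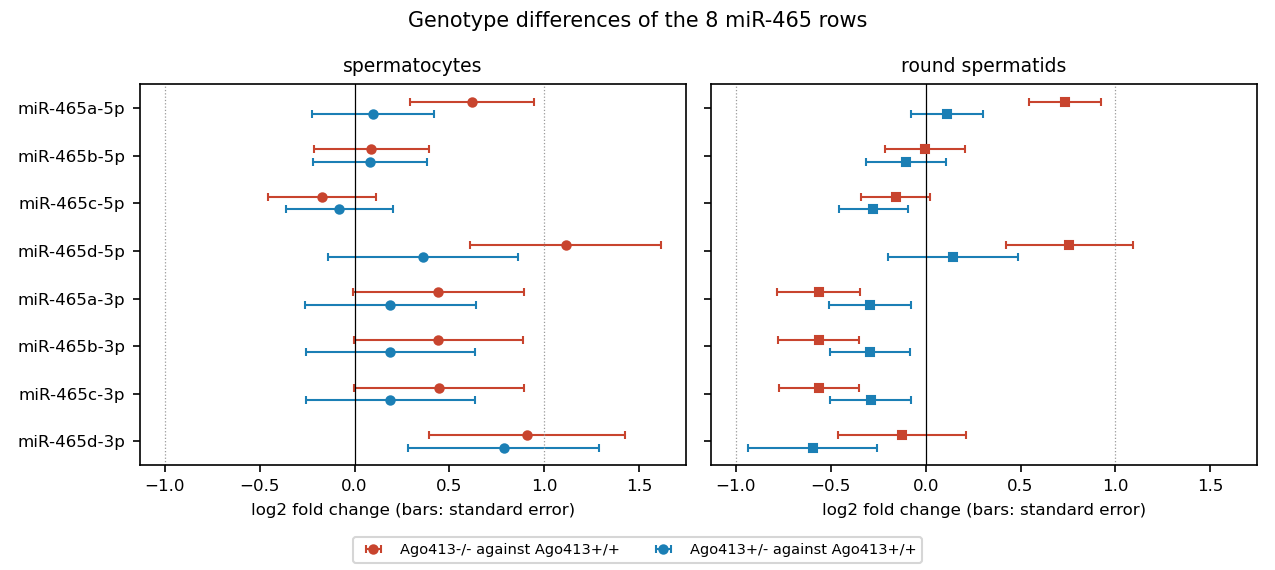
Log2 fold change of the 8 miR-465 rows against Ago413+/+, with bars for the standard error, in spermatocytes (left) and round spermatids (right), for Ago413-/- (red) and Ago413+/- (blue); dotted lines mark a log2 fold change of 1 in either direction. In Ago413-/- round spermatids miR-465a-5p lies at 0.73 and the 3 identical 3p rows at -0.56.

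Ratios within the family do not depend on how libraries are scaled against each other, and they separated the genotypes in round spermatids. The log2 ratio of 5p to 3p counts was 1.84, 2.30, 2.13 and 1.94 in Ago413-/- and 1.32, 1.68, 1.42 and 1.63 in Ago413+/+, a difference of 0.54. The ratio was higher in every Ago413-/- library than in any Ago413+/+ library, and the difference stayed between 0.46 and 0.61 when any 1 of the 8 libraries was left out. Ago413+/- libraries, at 1.71, 1.76, 1.52 and 1.58, overlapped Ago413+/+. These ratios were formed over members chosen with results known and are given as descriptions, without a test.

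The make-up of the 5p strands differed as well. miR-465a-5p took 9.46%, 7.9996%, 8.16% and 8.99% of the 5p counts in Ago413-/- round spermatids and 4.78%, 4.56%, 4.77% and 6.29% in Ago413+/+. The 2 sets did not overlap, with means of 8.65% ± 0.69 and 5.10% ± 0.80 (SD, n = 4 each). miR-465b-5p held 44.3% ± 1.1 and 43.1% ± 6.7 and miR-465c-5p 47.0% ± 1.4 and 51.7% ± 6.9 (SD, n = 4 each), both overlapping. The SD of these shares was wide in Ago413+/+, where miR-465b-5p ranged from 35.9% to 51.4%, and narrow in Ago413-/-, where it ranged from 43.3% to 45.2%. The family as a whole took 5.95% to 6.95% of counts in Ago413-/- and 7.78% to 8.91% in Ago413+/+, again without overlap.

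**Figure D4:**
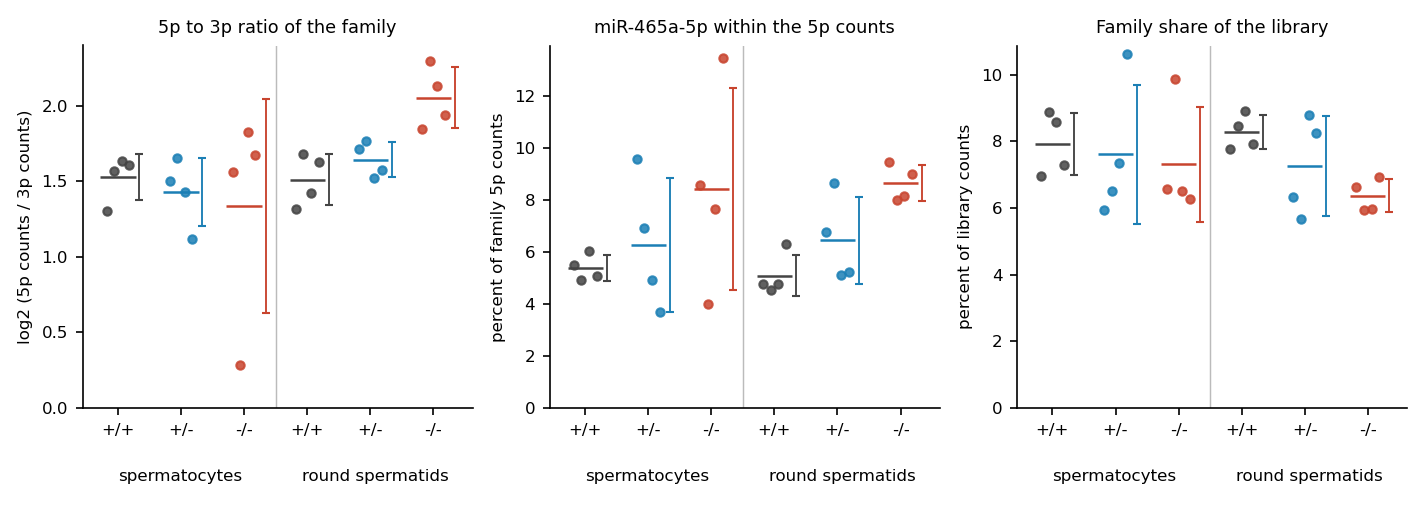
Log2 ratio of 5p to 3p counts of the family (left), percent of its 5p counts in miR-465a-5p (middle) and percent of all library counts in the family (right), for 24 libraries by cell type and genotype, with means (lines) and SDs of 4 libraries (bars). In round spermatids the Ago413-/- and Ago413+/+ libraries do not overlap in any of the 3 panels; in spermatocytes 1 Ago413-/- library lies apart at a log2 ratio of 0.28.

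Rows were also summed by seed, as the unit that would share targets. The 3p family with seed AUCAGGG, which counts each shared read once, had a log2 fold change of -0.80 (SE 0.21) in Ago413-/- round spermatids, with an adjusted p of 0.0130 in edgeR's quasi-likelihood test over 353 seed families. It passed the threshold on the adjusted p but not that on the fold change, where 19.5% of the seed families passed the first and 15.9% passed both. The adjusted p remained between 0.0181 and 0.0427 with any 1 of the 8 libraries left out, with log2 fold changes of -0.84 to -0.69. The 5p family with seed AUUUAGA had a log2 fold change of -0.27 (SE 0.18) and an adjusted p of 0.315. Seed families have their own library scaling, and their median was -0.12 in this comparison.

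In spermatocytes no miR-465 row passed the adjusted test between Ago413-/- and Ago413+/+. The shares of miR-465c-5p and of the sparse miR-465d-5p in the 5p counts did not overlap between them. Of the 8 rows 0 were called by edgeR, against 4.46% of the 404 miRNAs tested (4.46% also by the adjusted p alone), 1 had an unadjusted p under 0.05, where 103 of the 404 miRNAs had one, and DESeq2 called 61 of the 404 and 0 of the 8. The median log2 fold change was 0.44, against -0.05 over all miRNAs, and it is the value of the shared 3p sequence, which counts 3 times among the 8 rows. That median rests on 1 library. The summed 3p strands stood at 15946, 54064, 15191 and 17109.7 CPM, where the 54064 CPM are those of the smallest library, replicate 2. All the others lie below the Ago413+/+ range of 17588 to 21951 CPM. With that replicate the miR-465b-3p row had a log2 fold change of 0.44 and without it of -0.25, with an edgeR adjusted p of 0.719. The same library had the lowest miR-465a-5p level of its group, 2648 CPM against 4047, 4121 and 7381.5 CPM in the others.

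The arm ratio followed that library. It was 1.56, 0.28, 1.82 and 1.68 in Ago413-/- spermatocytes and 1.30, 1.57, 1.63 and 1.61 in Ago413+/+. With all libraries the difference was -0.19, and without replicate 2 it was 0.16, in each case with overlap. miR-465a-5p took 8.59%, 4.01%, 7.64% and 13.5% of the 5p counts in Ago413-/- and 4.91% to 6.04% in Ago413+/+, so that 3 libraries lay above the Ago413+/+ range and replicate 2 below it. Its log2 fold change was 0.62 (SE 0.33) with an edgeR adjusted p of 0.260, 0.79 with an adjusted p of 0.110 without replicate 2, and 0.22 with an adjusted p of 0.717 without replicate 4, the library at 7381.5 CPM.

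The row of 8 that did not overlap in spermatocytes was miR-465d-5p, where 19.8% of all miRNAs did not overlap. It held 9, 5, 6 and 7 counts in Ago413-/- libraries and 4, 11, 13 and 4 in Ago413+/+ libraries, which were mostly deeper, and its log2 fold change was 1.11 (SE 0.50) with an edgeR adjusted p of 0.172. Its unadjusted p was 0.0423, which did not pass the adjustment. Of the remaining strands, miR-465d-3p had a log2 fold change of 0.91 (SE 0.52), which was 0.31 with an edgeR adjusted p of 0.735 without Ago413-/- replicate 2, miR-465b-5p of 0.09 (SE 0.30) and miR-465c-5p of -0.17 (SE 0.28). miR-465c-5p made up 42.4% ± 2.1 of the 5p counts in Ago413-/- and 48.2% ± 2.4 in Ago413+/+ (SD, n = 4 each), without overlap. Its share was lower than that of miR-465b-5p in all 4 Ago413-/- libraries, where the ratio of miR-465b-5p to miR-465c-5p was 1.07 to 1.22. These strands are 1 base apart, and the part that reads assigned to the wrong row had in this difference was not tested. Neither seed family was called, where 6.87% of 335 were, with log2 fold changes of 0.28 (SE 0.42) for 3p and -0.14 (SE 0.28) for 5p. Without replicate 2 the 3p seed family stood at -0.27 with an edgeR adjusted p of 0.705.

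Loss of 1 copy of the locus left no miR-465 row called. In Ago413+/- spermatocytes the log2 fold changes ran from -0.08 to 0.79, with edgeR adjusted p-values of 1.00, and 0 of 8 rows did not overlap against 2.48% of all miRNAs. In Ago413+/- round spermatids they ran from -0.60 to 0.14, with edgeR adjusted p-values of 0.409 to 0.880, and again 0 of 8 did not overlap against 5.4%. These comparisons called 0% of all miRNAs and of all seed families by edgeR in both cell types. At an unadjusted p under 0.05 there were 13 miRNAs in spermatocytes and 68 in round spermatids, 0 of the 8 rows among either, and DESeq2 called 0 and 6 miRNAs. miR-465a-5p in Ago413+/- round spermatids, at 3097, 3682, 3238 and 2983.5 CPM, lay within the Ago413+/+ range and below every Ago413-/- library.

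The second question was whether the family changed from spermatocytes to round spermatids, and whether that change depended on the genotype. In Ago413+/+ all 8 rows had log2 fold changes above 0, from 0.09 to 0.51, but none passed the test (edgeR adjusted p 0.996), and 0 of 8 did not overlap against 1.33% of all 450 miRNAs. In Ago413+/- they ran from -0.92 to 0.24, with 0 of 8 not overlapping against 2.89%. In both genotypes edgeR called 0% of all miRNAs and 0% of the 371 seed families, with 10 and 15 miRNAs at an unadjusted p under 0.05, 0 and 1 of them miR-465 rows, and DESeq2 called 0.

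In Ago413-/- the 3p strands were the ones that differed most between the cell types. The 3 identical rows had log2 fold changes of -0.95 (SE 0.37) with edgeR adjusted p-values of 0.0999 to 0.101, where 4.89% of all miRNAs were called, and the 3p seed family had -1.10 (SE 0.38) with an adjusted p of 0.0622, where 6.2% of seed families were called. No row was without overlap, against 12.2% of all miRNAs. The 5p rows lay between -0.17 and 0.13. The 3p seed family was called without replicate 1 (log2 fold change -1.07, adjusted p 0.0496) or replicate 3 (-1.33, adjusted p 0.0312) of Ago413-/- spermatocytes, and 2 of the 3 identical rows were called without replicate 1. The differences of the rows and of the seed family rest on replicate 2 of the spermatocytes: without it the rows had a log2 fold change of -0.13 (adjusted p 0.812 for miR-465a-3p) and the seed family one of -0.27 (adjusted p 0.576). The log2 ratio of 5p to 3p counts was higher in every Ago413-/- round spermatid library than in any Ago413-/- spermatocyte library, by 0.72 on average with all libraries and by 0.37 without that replicate. The interaction of cell type with genotype, which asks whether the Ago413-/- difference itself was unlike in the 2 cell types, was -1.16 (SE 0.52) for miR-465a-3p with an edgeR adjusted p of 0.381, and -0.29 with an adjusted p of 0.785 without that library. It called 0% of the 450 miRNAs by edgeR and by DESeq2, 55 had an unadjusted p under 0.05, and 3 of these were the identical 3p rows. A difference between the cell types in the response of the 3p strands was thus not shown.

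The other X-linked miRNA hairpins give the family's surroundings. From RefSeq positions, 13 hairpins from Mir743 to Mir470 lie on one side of the miR-465 row, the start of Mir470 being 8.7 kb from that of Mir465d, and Mir201, Mir547 and Mir509 follow 1149 kb beyond the miR-465a hairpin. Of the 32 arms of these hairpins 27 were tested. In Ago413-/- round spermatids 2 were higher, miR-201-5p (log2 fold change 1.29) and miR-547-3p (1.11), and 2 lower, miR-470-3p (-1.42) and miR-883b-5p (-1.07). Of all miRNAs tested there 16.2% were called. The median of the 27 was 0.07, against 0.13 over all miRNAs. In Ago413-/- spermatocytes 0 were higher and 1 was lower, miR-743b-5p (-1.26), where 4.46% of all miRNAs were called. The median of the 27 was -0.56, against -0.05 over all miRNAs. The miR-465 rows had a median of 0.44 that rests on 1 library, without which miR-465b-3p stood at -0.25. In Ago413+/- none was called in either cell type.

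The 4 most abundant of these neighbours in Ago413+/+ were miR-881-3p at 85595.5 CPM, miR-871-3p at 39226 CPM, miR-470-5p at 21486 CPM and miR-741-3p at 19246 CPM, which places miR-465c-5p and miR-465b-5p among the leading strands of the region. In Ago413-/- round spermatids their log2 fold changes were 0.81, -0.91, 0.37 and 0.19, none of them called. Among the neighbours, arms of a single hairpin went either way in the same comparison. miR-470-5p stood at 0.37 (edgeR adjusted p 0.318) and miR-470-3p at -1.42. The sparse miR-742-5p stood at -0.95 and miR-742-3p at 0.85 (edgeR adjusted p 0.128 and 0.0719), neither of them called. The arms of miR-471, miR-878 and miR-883a also lay on opposite sides of 0, none of them called. Both arms lay on the same side for miR-871 (5p -0.33, 3p -0.91) and miR-201 (5p 1.29, 3p 0.65). The same held for miR-743a, miR-743b, miR-741, miR-463 and miR-883b. For miR-465 the shared 3p reads cannot be assigned to a single hairpin. The miRNAs whose level followed the summed 3p strands most closely over the 24 libraries were miR-423-5p (Pearson r 0.850, 0.582 without the 2 libraries farthest from the median), miR-871-3p (0.816), miR-744-5p (0.816), miR-674-3p (0.810) and miR-25-5p (0.809), out of 442 compared. For the summed 5p strands they were miR-330-3p (0.750), miR-871-3p (0.741), let-7f-5p (0.716), miR-184-3p (0.710) and miR-151-3p (0.699). miR-871-3p, from the hairpin next but one to Mir465d, was the miRNA on both lists. The libraries share depth, scaling and the 6 groups, and these correlations are given as descriptions.

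**Figure D5:**
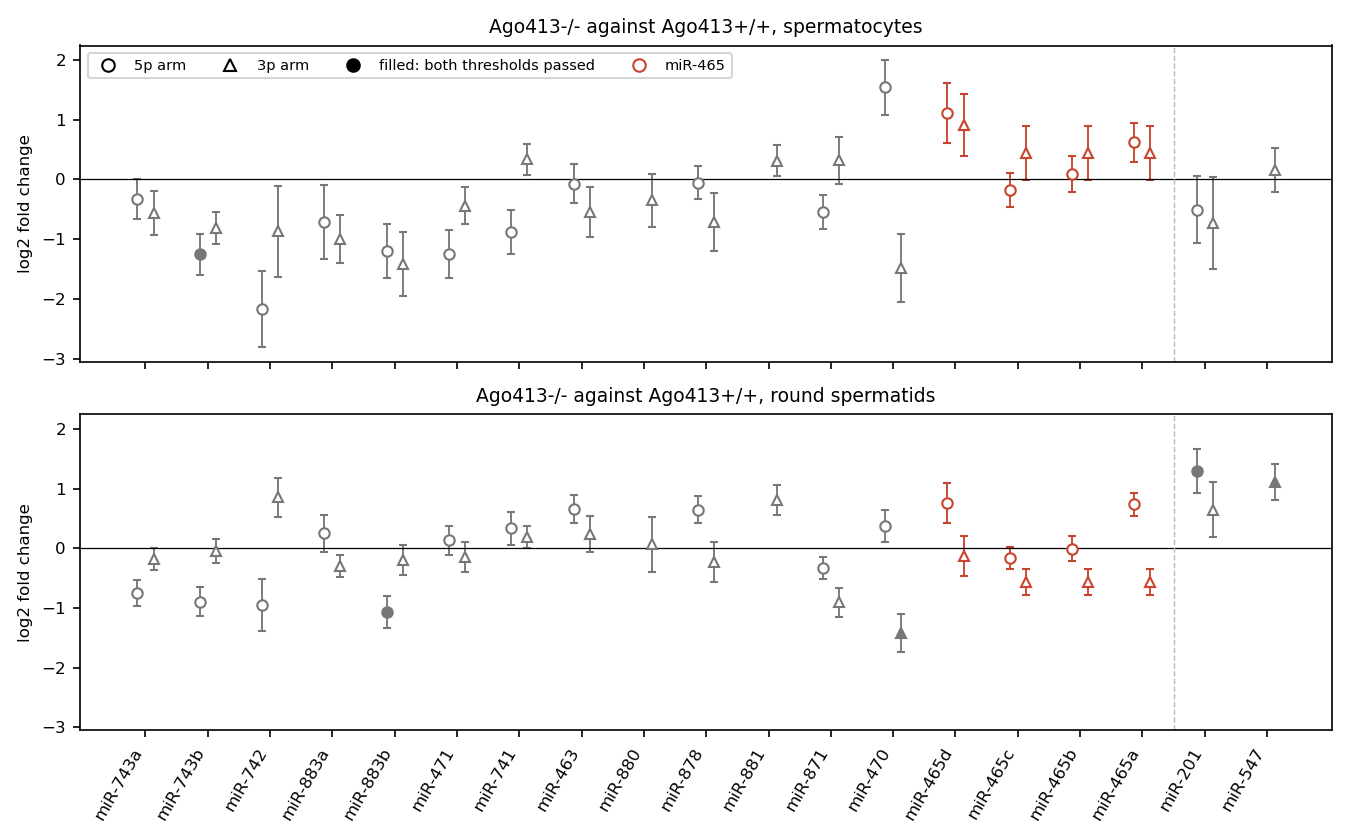
Log2 fold change (bars: standard error) of the tested arms of the X-linked hairpins in Ago413-/- against Ago413+/+, in order of position (not to scale), in spermatocytes (top) and round spermatids (bottom); circles are 5p and triangles 3p arms, red marks miR-465, filled symbols were called, and the dashed line marks the 1149 kb gap. No miR-465 arm was called in either cell type; 1 neighbour was called in spermatocytes and 4 in round spermatids.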

How the data were processed

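Per the labels and the study's methods, the authors trimmed reads with Trim Galore, assigned them to miRBase miRNAs by miRDeep2's quantifier, and deposited raw counts for 1978 mature miRNAs in 24 libraries. Tool versions and the mismatch setting are not given in the sources used here. From the deposited counts, miRNAs that reached 10 counts in 3 or more libraries of a fit were tested in R 4.3.3 with edgeR 4.0.16 (TMM, quasi-likelihood), over the 12 libraries of a cell type for genotype and all 24 for cell type. Calls needed a Benjamini-Hochberg adjusted p under 0.05 plus a log2 fold change of 1 or more in size, the interaction the adjusted p alone. DESeq2 1.42.0 was an alternative. Seed families were summed over bases 2 to 8, for the 1679 rows matched to a RefSeq sequence. The 3 identical 3p rows were summed, since reads had been divided among them. Arm ratios had a pseudocount of 0.5 added to each sum. The named miRNAs are all members, the cell type markers, the called and the 4 most abundant neighbours, and the 5 most alike. The neighbours with both arms tested were named in addition, outside that plan. Members and lists were chosen with earlier results of these data known. The scripts were tested on simulated data. The standard errors and p-values of the fits include the spread between libraries, and the SDs are those of 4 libraries. The limit given for a count of 0 covers counting error only.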

Additional observations from a re-analysis of the deposited data

Results flagged for a closer look

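In groups of 4 libraries, a library was singled out where its gap to the nearest of the others, divided by the range of the group, was above Dixon's 95% critical value. This was asked of 84 groups of values, where chance gives about 4.2, and 5 stood apart. Replicate 2 of Ago413-/- spermatocytes, the smallest library, stood apart in 4 of them: miR-465a-3p at 10820 CPM (others 3043 to 3429), miR-465b-3p at 21650 CPM (6087 to 6857), miR-465c-3p at 21590 CPM (6061 to 6824) and the family's share of all counts at 9.886% (6.278% to 6.565%). The first 3 are a single sequence. Replicate 4 of Ago413+/+ round spermatids had 6.29% of its 5p counts in miR-465a-5p, where the others had 4.556% to 4.777%; it remained below every Ago413-/- library of that cell type.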

How the results depend on the processing

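No miR-465 row was called under any alternative run on the same libraries (DESeq2, RLE scaling, library totals, both filters, the 2 groups alone, the replicate block, rows of identical counts counted once), and no miR-465 seed family under those run for families (DESeq2, library totals, the replicate block). In Ago413-/- round spermatids the adjusted p alone passed miR-465a-5p and the 3p seed family. There the row's adjusted p ran from 0.00716 with DESeq2's test to 0.307 without a filter, and that of miR-465b-3p from 0.0154 to 0.0712, with directions unchanged. Over all miRNAs of that comparison 32 were called higher and 37 lower with TMM, 27 and 42 with RLE scaling and 16 and 52 with library totals. Equal replicate numbers were not taken to mark pairs, since the labels do not say so and in no comparison did every pair of the same number deviate together with a correlation over 0.1 (range -0.32 to 0.43). In round spermatids against spermatocytes of Ago413+/+ 3 of 4 pairs did, each correlating best with its own number, and the other stood at -0.165. Most same-number libraries of the 2 cell types also carry neighbouring column numbers, and both fractions were collected from gradients of germ cell suspensions. Whether the 2 fractions of a number shared mice is not stated. The cell type and interaction tests treated the libraries as independent and would leave out such a pairing. With the replicate block the 3p seed family in round spermatids against spermatocytes of Ago413-/- had a log2 fold change of -0.73 with an edgeR adjusted p of 0.195. The replicate block, used only as an alternative, left miR-465a-5p at 0.74 with an adjusted p of 0.0316, called 62 in place of 69 miRNAs in that comparison, and crossed no threshold for any member. The log2 fold changes that changed sign were all small and not called, and the cause was not tested. Library totals gave -0.14 for miR-465b-5p in Ago413-/- spermatocytes, -0.0268 for miR-465b-5p in Ago413+/- spermatocytes, -0.0276 for miR-465a-5p and -0.0465 for miR-465b-5p in round spermatids against spermatocytes of Ago413+/+, 0.12 for miR-465a-5p and 0.0136 for miR-465c-5p in the interaction and 0.0213 for the 5p seed family in round spermatids against spermatocytes of Ago413-/-. No filter on low counts gave -0.0195 for miR-465b-5p in Ago413-/- spermatocytes, -0.048 for miR-465a-5p and -0.0516 for miR-465b-5p in Ago413+/- spermatocytes, 0.0429 for miR-465d-5p in round spermatids against spermatocytes of Ago413-/- and 0.0746 for miR-465a-5p in the interaction. A filter of 10 counts in every library gave -0.0586 for miR-465b-5p in Ago413-/- spermatocytes and 0.15 for miR-465a-5p and 0.0468 for miR-465c-5p in the interaction. The replicate block gave 0.0175 for miR-465b-5p in Ago413-/- round spermatids and 0.0602 for miR-465a-5p in the interaction. Counting rows of identical counts once gave -0.0111 for miR-465a-5p and -0.0295 for miR-465b-5p in Ago413+/- spermatocytes. Fitting the 2 groups alone gave -0.0221 for miR-465c-5p in round spermatids against spermatocytes of Ago413+/- and 0.0257 for miR-465d-5p in round spermatids against spermatocytes of Ago413-/-. DESeq2 gave 0.0282 for the 5p seed family in Ago413+/- spermatocytes and 0.0134 for the 5p seed family in round spermatids against spermatocytes of Ago413-/-. With 1 library left out, the count of rows called in round spermatids against spermatocytes of Ago413-/- was 0 to 2 (2 without replicate 1 of the spermatocytes) and that of seed families 0 to 1 (1 without replicate 1 or 3 of the spermatocytes). Sign changes of uncalled values were also met when 1 library was left out. In Ago413-/- round spermatids the range was -0.38 to 0.15 for miR-465b-5p and -0.51 to 0.0809 for miR-465d-3p. In round spermatids against spermatocytes of Ago413-/- the range was -0.24 to 0.12 for miR-465b-5p, -0.12 to 0.22 for miR-465d-5p, -0.94 to 0.044 for miR-465d-3p and -0.17 to 0.0962 for the 5p seed family. In the interaction the range was -0.15 to 0.47 for miR-465a-5p, -0.41 to 0.0828 for miR-465b-5p and -0.23 to 0.17 for miR-465c-5p. In Ago413+/- round spermatids the range was -0.0558 to 0.17 for miR-465a-5p, -0.33 to 0.045 for miR-465b-5p and -0.0513 to 0.27 for miR-465d-5p. In round spermatids against spermatocytes of Ago413+/- the range was -0.00728 to 0.21 for miR-465a-5p, -0.48 to 0.13 for miR-465a-3p, miR-465b-3p and miR-465c-3p, -0.29 to 0.17 for miR-465b-5p, -0.10 to 0.33 for miR-465c-5p, -0.00958 to 0.69 for miR-465d-5p, -0.18 to 0.25 for the 5p seed family and -0.48 to 0.15 for the 3p seed family. In round spermatids against spermatocytes of Ago413+/+ the range was -0.0458 to 0.21 for miR-465a-5p and -0.12 to 0.24 for miR-465b-5p. In Ago413-/- spermatocytes the range was -0.25 to 0.61 for miR-465a-3p, miR-465b-3p and miR-465c-3p, -0.12 to 0.14 for miR-465b-5p, -0.25 to 0.0612 for the 5p seed family and -0.27 to 0.57 for the 3p seed family. In Ago413+/- spermatocytes the range was -0.12 to 0.23 for miR-465a-5p, -0.23 to 0.29 for miR-465a-3p, miR-465b-3p and miR-465c-3p, -0.20 to 0.15 for miR-465b-5p, -0.34 to 0.0044 for miR-465c-5p, -0.30 to 0.16 for the 5p seed family and -0.29 to 0.41 for the 3p seed family. The 4 to 21 counts of miR-465d-5p and the small spermatocyte libraries limit what could be detected.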
